A study of Mus musculus with 6 samples.

Results

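The Notch pathway genes described here are the 4 receptors Notch1, Notch2, Notch3 and Notch4, the 4 ligands Jag1, Jag2, Dll1 and Dll4, and the 2 target genes Hes1 and Hey1. They were chosen by gene symbol, and all 10 were found among the 14681 genes of the authors' deposited table. Bulk RNA was sequenced from dorsal pancreas of C57BL/6 mouse embryos at embryonic day 18.5, in 3 samples labelled control and 3 labelled knockout. The knockout embryos are named Dpy30∆P. Dpy30 is a subunit shared by the Trithorax group complexes that methylate lysine 4 of histone H3. The labels used here give neither the driver and alleles of the deletion nor the genotype of the controls. The table holds 1 mean normalized count per gene over all 6 samples and 1 fold change between the groups, so a value per sample, a level per group and the spread between embryos cannot be shown.

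Notch signalling passes between touching cells. A ligand of the Delta or Jagged type on one cell binds a Notch receptor on its neighbour, the receptor is cut, and its inner part enters the nucleus, joins the DNA-binding factor Rbpj and switches on genes such as Hes1 and Hey1. In the embryonic pancreas the pathway is known for holding back differentiation of progenitors, and in blood vessels for its roles in endothelium and in the cells of the vessel wall.

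The table does not state which group is the numerator of its fold changes. A positive value is read here as higher in the knockout, by the usual convention, and every direction given would turn if the table was made the other way round. The name under which the table was deposited refers to Pdx1, whereas the labels refer to Dpy30. Dpy30 itself had a mean normalized count of 29.4 and p = 0.766 in the authors' deposited table. Its log2 fold change, worked out as described next, was 0.50 ± 1.66 (SE). Pdx1, a transcription factor of pancreatic progenitors and beta cells, had a mean count of 52.7 and p = 0.418 in the authors' deposited table, and its log2 fold change was -0.89 ± 1.10 (SE). Neither value checks the labels. Acinar markers identified the tissue: 11 of 12 listed were in the table, with mean counts from 7.23 to 161670. The mean counts of all genes summed to 3663175, and the depth of single samples is unknown.

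The fold changes in the table were shrunken towards 0, so their size cannot be read directly. The value before shrinkage was worked out from the deposited columns and is called reconstructed, and it is given with its standard error (SE) and 95% interval. Fewer cells of a type and less RNA per cell cannot be told apart in whole tissue. The p-values are those of the authors' DESeq2 test. It weighs the difference between the groups against the spread among samples within the groups, as that test estimates it.

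None of the receptors, ligands and targets passed the authors' DESeq2 test. Of the 9 members with an adjusted p, 0 had one under 0.05, where 0.743% of the 12108 genes so tested did. The authors' deposited table lists 1.00 as the adjusted p of each of the 9, and Hey1 had a p without an adjusted one. The unadjusted p-values in the authors' deposited table ran from 0.226 for Dll4 to 0.732 for Jag1, so 0 of 10 were under 0.05, where 5.39% of genes were. Among 10 genes, a count of 0 is near this background and does not set them apart. By sign, 6 members were positive and 4 negative, where 7884 of all genes were positive and 6502 negative. The 95% intervals of all 10 reconstructed values held 0.

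**Figure D1:**
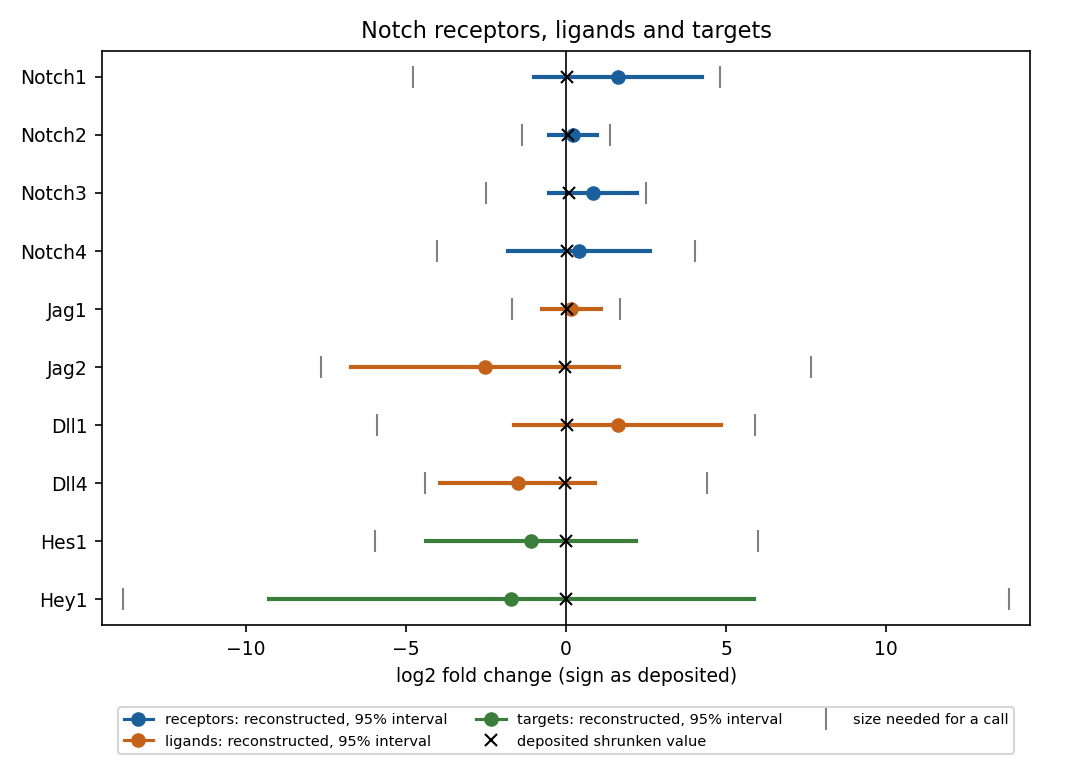
Log2 fold change (x axis, with the deposited sign) for the 10 Notch genes (y axis). Circles with bars are reconstructed values with 95% intervals, crosses are the shrunken values of the authors' deposited table, and grey ticks mark the smallest change that would have been called at the SE of each gene. All intervals cross 0, and they widen from Notch2 (-0.54 to 0.96) to Hey1 (-9.30 to 5.88).

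Levels were compared as the mean normalized count divided by the coding length of the gene. Notch2 had the highest level of the 10 genes. Notch2 (Entrez gene 18129; chromosome 3, 98013538 to 98150367, GRCm38.p6) had a mean count of 980 and a level of 132 per kb, above that of 75.8% of genes. Notch1 (Entrez gene 18128; chromosome 2, 26457902 to 26503822) followed with a mean count of 728 and a level of 95.9 per kb. Notch2 gave 47.5% and Notch1 34.5% of the summed receptor level per kb.

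Notch3 and Notch4, receptors known from the vessel wall and from endothelium, were lower. Notch3 (Entrez gene 18131; chromosome 17, 32120820 to 32166896) had a mean count of 230 and a level of 33.1 per kb. Notch4 (Entrez gene 18132; chromosome 17, 34564286 to 34588543) had a mean count of 101 and a level of 17.1 per kb, the lowest of the receptors. The median level was 63.5 per kb over 15 endothelial markers and 117 per kb over 12 smooth muscle and pericyte markers.

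Jag1 made up most of the ligand level. Jag1 (Entrez gene 16449; chromosome 2, 137081451 to 137116520) had a mean count of 304 and a level of 83.2 per kb, which was 58.9% of the ligand total per kb. Dll4 (Entrez gene 54485; chromosome 2, 119325784 to 119335666), a ligand of growing vessels, had a mean count of 60.4 and a level of 29.3 per kb. Dll1 (Entrez gene 13388; chromosome 17, 15367354 to 15376932) had a mean count of 37.7 and a level of 17.4 per kb. Jag2 (Entrez gene 16450; chromosome 12, 112907803 to 112929812) had a mean count of 42.5 and a level of 11.4 per kb, the lowest of the ligands by length, whereas Dll1 was the lowest by mean count.

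Hes1 and Hey1 encode basic helix-loop-helix repressors, and both were weakly counted. Hes1 (Entrez gene 15205; chromosome 16, 30065357 to 30067796) had a mean count of 22.9. Its coding sequence of 846 bases is the shortest of the 10 genes and put its level at 27.1 per kb, above that of 34.6% of genes. Hey1 (Entrez gene 15213; chromosome 3, 8663359 to 8667038) had a mean count of 3.20 and a level of 3.57 per kb, above that of 8.13% of genes. The median level of all genes was 50.3 per kb: Notch2, Notch1 and Jag1 lay above it and the other 7 members below it. By mean count, without length, Notch3 (230) and Notch4 (101) also lay above the median of all genes, 65.1. With 1 mean per gene, no neighbours in the order by level could be tested against their spread.

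**Figure D2:**
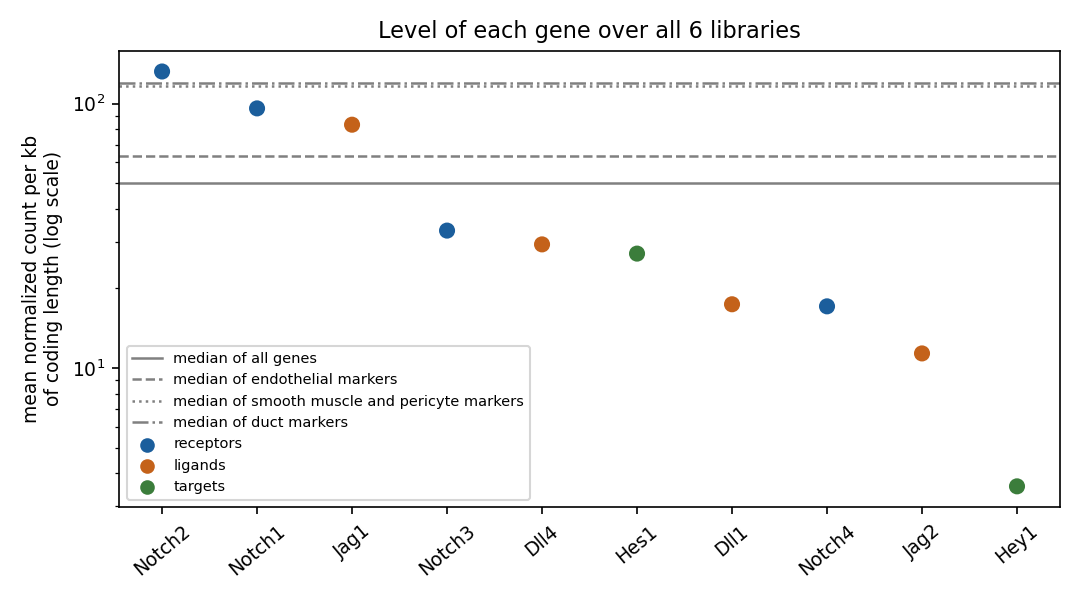
Mean normalized count per kb of coding length (log scale) of the 10 Notch genes over all 6 samples together. Each point is 1 deposited mean divided by length, with no error available, and the lines give the median of all genes (50.3) and of marker lists. Notch2, Notch1 and Jag1 lie above the median of all genes, and Hey1 is lowest at 3.57.

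The promoters of the members differed widely in their content of CpG dinucleotides, a feature of the promoters at which methylation of lysine 4 of histone H3 is typically found. RefSeq promoter sequences (GRCm38.p6) were matched for 8 of the 10 members, with 9 start sites; Hes1 and Hey1 were not matched. In the 250 bases before the start, the observed over the expected number of CpG was 0.23 in Notch4, 0.56 in Dll4, 0.59 in Notch1 and 0.60 in Notch3. It was 0.66 and 0.82 at the 2 starts of Dll1, 0.98 in Jag1, 1.06 in Notch2 and 1.14 in Jag2. The median of 14594 promoters of genes in the table was 0.67, and 13.8% of them had a lower ratio than Notch4.

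The sequences of Notch4 and Notch2 show the poorest and the richest of the members that have at least 150 bases outside annotated exons in this window. They are printed 5′ to 3′ with each CpG in capitals and are chr17:34564045-34564267 (plus strand) for Notch4, with 4 CpG in 223 bases, and chr3:98013288-98013526 (plus strand) for Notch2, with 34 CpG in 239 bases.
Notch4: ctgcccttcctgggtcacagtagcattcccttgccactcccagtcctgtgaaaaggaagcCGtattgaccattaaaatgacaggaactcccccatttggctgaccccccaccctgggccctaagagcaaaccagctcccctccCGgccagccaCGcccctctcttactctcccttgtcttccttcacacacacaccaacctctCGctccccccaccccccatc
Notch2: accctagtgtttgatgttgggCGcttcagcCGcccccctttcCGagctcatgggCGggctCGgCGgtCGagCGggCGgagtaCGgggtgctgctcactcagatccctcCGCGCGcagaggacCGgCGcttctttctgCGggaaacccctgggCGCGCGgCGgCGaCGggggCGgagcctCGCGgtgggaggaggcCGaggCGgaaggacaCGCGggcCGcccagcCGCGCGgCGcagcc

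The capitals are spread along the Notch2 stretch and rare in that of Notch4, and neither gene was called. Of genes with an adjusted p, 26 of 6388 whose first listed promoter had a ratio of at least 0.6 were called (0.407%), and 47 of 3253 with a lower ratio were called (1.44%). Genes are not independent replicates, so these shares are a description. The motif GTGGGAA, a core of the sequence that Rbpj binds, was in 0 of the 9 member promoters on either strand and in 5.57% of all promoters. The shorter GTGGGA, which every GTGGGAA also holds, was in 3 of the 9 on either strand, the printed Notch2 stretch among them, and in 20.2% of all promoters. A match is a description, and its absence says only that these letters are not in these 250 bases.

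**Figure D3:**
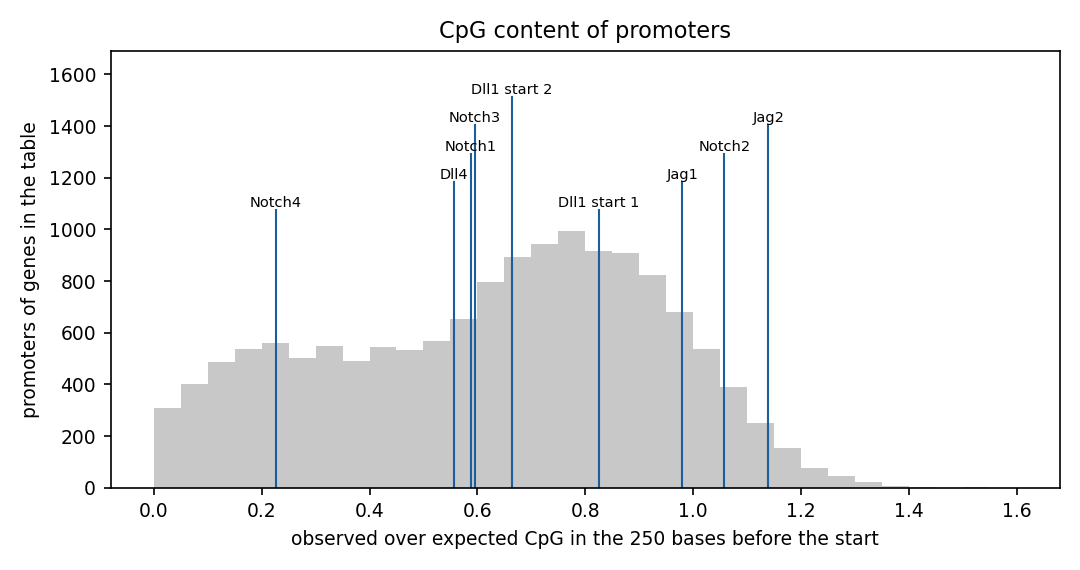
Number of promoters (y axis) by observed over expected CpG in the 250 bases before the start (x axis), for 14594 promoters of genes in the table, with lines at the 9 start sites of 8 Notch genes. The members run from 0.23 in Notch4 to 1.14 in Jag2, on both sides of the median of 0.67.

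Among the receptors, Notch2 had the smallest error. Its log2 fold change was 0.05 ± 0.20 (posterior SD) with p = 0.582 in the authors' deposited table. The reconstructed log2 fold change was 0.21 ± 0.38 (SE), and its 95% interval from -0.54 to 0.96 spans 0.688-fold to 1.95-fold. Notch2 was the 1 member whose interval stayed within 1 log2 unit of 0.

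The reconstructed value of Notch3 was 0.84 ± 0.70 (SE), with an interval from -0.54 to 2.21 and p = 0.238 in the authors' deposited table. Notch4 had a reconstructed value of 0.40 ± 1.13 (SE), with an interval from -1.81 to 2.61 and p = 0.725 in the authors' deposited table. All 4 receptors had a positive sign, and no receptor passed the test. The 3 scalings tried left these signs, but they add only shifts of 0.63, 0.04 and -0.09, and a positive shift cannot turn them.

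Notch1 was measured less precisely than genes of its abundance. Its reconstructed log2 fold change was 1.62 ± 1.34 (SE), with an interval from -1.0 to 4.25 and p = 0.241 in the authors' deposited table. In the 200 genes nearest to it in mean count, the median SE was 0.41. The SE of Notch1 was 3.30 times that median and larger than the SE of 99.5% of those genes. Of 1064 genes with a mean count of at least 500 and a reconstructed value, 5 had an SE at least as large as that of Notch1: Notch1 itself, Fgb, Stag2, Chd4 and 2810433D01Rik, named after their values were seen.

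The deposited columns show the same contrast directly. Rbpj, with p = 0.233 and a lower mean count of 397, kept a shrunken log2 fold change of 0.12 in the authors' deposited table, whereas Notch1, with nearly the same p, kept 0.04. The size of the reconstructed value rests on the prior assumed, whereas its sign is that of the deposited value at any scale. The scale used was chosen so that the z returned the deposited p, and other scales fit those p-values less well over all genes. With the scale 20% larger, all 10 members lay nearer to 0, between -0.15 for Dll4 and 0.25 for Notch3. Notch1 was then at 0.14, Notch2 at 0.12, Notch4 at 0.04, Jag1 at 0.07 and Dll1 at 0.09, and Jag2 was at -0.09, Hes1 at -0.06 and Hey1 at -0.02. The SE times the z of the deposited p moved a member by at most 0.17, but that SE rests on the scale used. How the 6 samples differ at Notch1 was not analysed here. The SE of the other members ranged from 0.60 times the median of genes of like abundance in Hey1 to 1.34 times in Jag2.

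**Figure D4:**
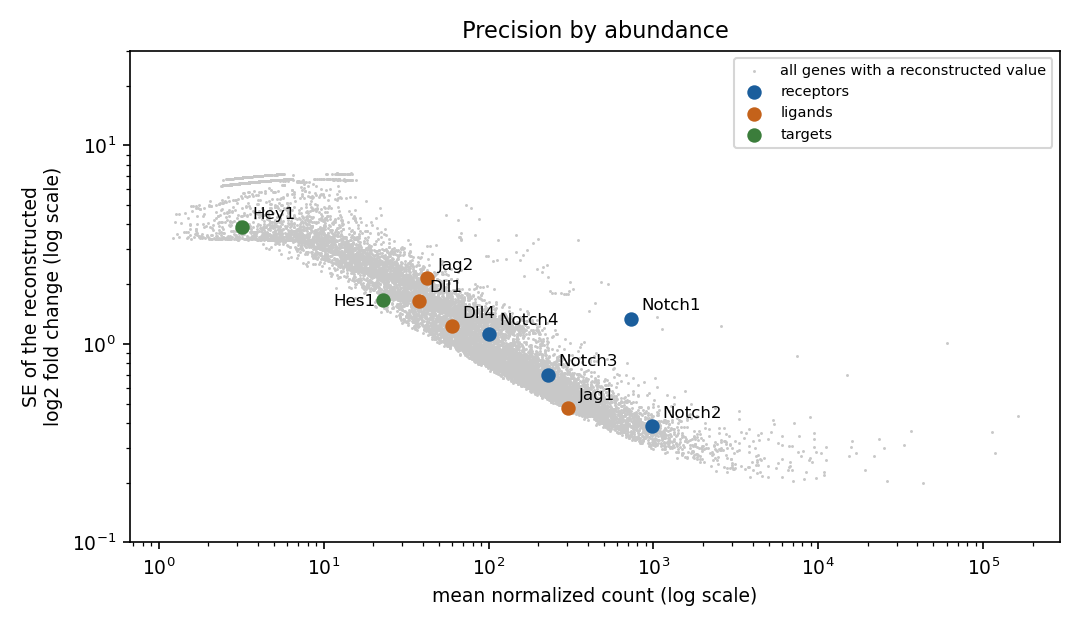
SE of the reconstructed log2 fold change (y axis, log scale) against mean normalized count (x axis, log scale) for genes with a reconstructed value (grey) and the 10 Notch genes (coloured). Notch1 lies above the band, at an SE of 1.34 where the 200 genes nearest in count have a median of 0.41.

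Among the ligands, Jag1 had the smallest error. Its reconstructed log2 fold change was 0.16 ± 0.47 (SE), with an interval from -0.76 to 1.09 and p = 0.732 in the authors' deposited table. Dll4 had the smallest p of the 10 genes, 0.226 in the authors' deposited table, with a reconstructed value of -1.51 ± 1.23 (SE) and an interval from -3.93 to 0.91. Dll1 was at 1.61 ± 1.65 (SE), with p = 0.340 in the authors' deposited table. Jag2 was at -2.54 ± 2.14 (SE), with p = 0.247 in the authors' deposited table. Jag1 and Dll1 were positive and Dll4 and Jag2 negative, and none of these directions could be told from 0.

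Both target genes had a negative sign. Hes1 had a reconstructed value of -1.11 ± 1.67 (SE), with an interval from -4.39 to 2.17 and p = 0.502 in the authors' deposited table. Hey1 was at -1.71 ± 3.87 (SE), with an interval from -9.30 to 5.88 and p = 0.627 in the authors' deposited table. At these errors a difference in either target was not detectable unless it was very large.

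The smallest change that could have been called was taken as the z of the largest p among called genes, 3.58, times the SE of each gene. It was 1.37 log2 units, or 2.59-fold, for Notch2 and 3.23-fold for Jag1. Notch3 would have needed a 5.69-fold change, Notch4 16.3-fold, Dll4 21.3-fold, Notch1 27.8-fold, Dll1 59.9-fold and Hes1 63.3-fold. At these SEs the test could have called changes of a few fold in Notch2 and Jag1 and not in the other ligands or in the targets. The SEs, and so these sizes, rest on the prior scale of the reconstruction, and the sizes were not worked out at other scales.

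The other genes of the pathway gave 1 call. Of 75 listed, 59 were in the table and 55 had an adjusted p. Of these 55, 1 was higher and 0 were lower, where 0.264% of all genes were higher and 0.479% lower. At an unadjusted p under 0.05, 2 of 59 were positive and 0 negative, where 2.70% of genes were in each direction. The median reconstructed value of the 34 with an SE of at most 1 was -0.00, beside -0.04 over all 5708 such genes. The other 16 listed genes were not analysed here.

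The called gene was Dlk1, a Delta-like membrane protein that lacks the domain with which the classical ligands bind Notch. Dlk1 had a mean count of 2983 and a level of 2583 per kb, where Jag1 was at 83.2. Its shrunken log2 fold change in the authors' deposited table was 0.78 ± 0.26 (posterior SD), which is 1.71-fold after shrinkage, with an adjusted p of 0.0335 by DESeq2. The reconstructed value was 0.91 ± 0.25 (SE), with an interval from 0.43 to 1.39. In an alternative added after seeing the data, p was computed again from the reconstructed values. It was adjusted over only the 12992 genes with such a value, so the set of genes changed as well. The adjusted p of Dlk1 was then 0.0623, and with the median of the endothelial markers also placed at 0 it was 0.162. The part of the changed set of genes in these values was not tested. Mesenchyme markers were positive in 11 of 12, with a median of 0.46 over 11, and endocrine markers were negative in all 10 that had a p. Their part in the value of Dlk1 was not tested. Dner, the other listed ligand in the table, had a mean count of 4.91 and p = 0.916 in the authors' deposited table.

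Of 6 genes that mature and glycosylate the receptor, 0 were called. Furin, a protease that processes the receptor precursor, had a reconstructed value of 0.44 ± 0.48 (SE). Rfng, a fringe glycosyltransferase, was at -0.82 ± 1.06 (SE). Of 7 genes that cut the receptor, 0 were called, with a median of -0.27 over the 4 with an SE of at most 1. Aph1a, a subunit of gamma-secretase, was at 1.43 ± 1.32 (SE). Aph1c, a close copy of Aph1b between which the counting could split reads, had a mean count of 5.24 and p = 0.147 in the authors' deposited table.

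Of 14 genes of endocytosis and turnover, 0 were called, with a median of 0.05 over 10. Dtx1, a ubiquitin ligase that is also a Notch target, had a mean count of 19.0, a positive sign and p = 0.0336 in the authors' deposited table, where its adjusted p by DESeq2 was 0.709. Neurl3, of the Neuralized family, had a mean count of 27.0 and p = 0.104 in the authors' deposited table. For both, the reconstruction gave no value within its tolerance.

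Of 6 genes of the nuclear complex, 0 were called, with 5 positive and 1 negative. Rbpj had a reconstructed value of 0.51 ± 0.43 (SE), with an interval from -0.33 to 1.35. Maml2, a coactivator, had a mean count of 4.51 and p = 0.163 in the authors' deposited table. Of 12 corepressors, 0 were called, with a median of -0.20 over 9. Spen, a corepressor that binds Rbpj, was at -0.94 ± 0.58 (SE), and Tle2, of the Groucho family, at 1.98 ± 1.57 (SE).

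Other targets gave no call. Of 6 other repressors of the Hes and Hey families, 0 were called, 2 were positive and 4 negative, and 0 had an SE of 1 or less. Heyl, a target known from the vessel wall, had a mean count of 101 and a reconstructed value of 1.56 ± 1.18 (SE). Hes7, known from the segmentation clock, had a mean count of 8.96 and p = 0.0994 in the authors' deposited table. Of 7 other genes that Notch is known to activate, 0 were called, with a median of -0.28 over 5. Sox9, a factor of pancreatic progenitors and ducts, was at -0.97 ± 0.58 (SE), with an interval from -2.09 to 0.16.

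Markers of the cell types in which the members act were set beside them. Of 15 endothelial markers, 0 were called, 10 were positive and 5 negative, and the median was 0.09 over the 8 with an SE of at most 1. Kdr, a receptor for vascular growth factor, had a negative sign and p = 0.107 in the authors' deposited table. Of 10 arterial markers, 0 were called and 7 were negative. Gja5, an arterial connexin, had a mean count of 11.7, a positive sign and p = 0.0295 in the authors' deposited table, where its adjusted p by DESeq2 was 0.663.

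Smooth muscle and pericyte markers were positive in 10 of the 11 with a p, where 7884 of 14386 genes were. All 4 receptors were positive too, as were the ligands Jag1 and Dll1, each with an interval that holds 0. Of these 11, 0 were called, and the 8 with an SE of at most 1 ran from -0.23 to 1.26 with a median of 0.51. Smtn, a smooth muscle protein, was at 1.05 ± 0.44 (SE), and the authors' deposited table gives it a DESeq2 adjusted p of 0.566. Col3a1, a collagen of mesenchyme, was at 0.63 ± 0.20 (SE), and the authors' deposited table gives it a DESeq2 adjusted p of 0.146. The part of these cells in the value of Notch3 was not tested.

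Epithelial markers had the opposite sign. Duct markers were negative in 9 of 9 with a median of -0.59 over 6, and 0 were called; Pkhd1, a ciliary protein of duct cells, was at -1.66 ± 0.67 (SE). Pan-epithelial markers were negative in all 13 with a p, with a median of -0.63 over 9. The keratin Krt18 was the 1 called, at -1.23 ± 0.28 (SE), and the authors' deposited table gives it a DESeq2 adjusted p of 0.00315. Hes1, Hey1, Dll4 and Jag2 were negative too, with intervals that hold both 0 and the pan-epithelial median, and the part of epithelial cells in their values was not tested. The intervals of the positive members Notch1, Notch4, Jag1 and Dll1 held 0 and that median as well. That median lay below the intervals of 2 members, Notch2 and Notch3.

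Acinar and endocrine markers were the lists with most calls. Of 10 acinar markers with an adjusted p, 8 were lower, with a median of -2.39 over 10 and values from -3.19 to 0.04. By sign, 9 of the 11 with a p were negative and 2 positive. Clps, the colipase, was at -3.19 ± 0.27 (SE) and Cpa1, a carboxypeptidase, at -2.60 ± 0.27 (SE). Of 10 endocrine markers with an adjusted p, 4 were lower, with a median of -2.41 over 7, among them Ins2, an insulin gene, at -3.56 ± 0.42 (SE) and Chga, of secretory granules, at -2.74 ± 0.55 (SE). The acinar median lay below the intervals of 6 members: all 4 receptors, Jag1 and Dll1. Notch1, Notch4 and Dll1 had an SE above 1, where no recovery of the reconstruction is given.

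The remaining lists gave no call. Of 7 endocrine progenitor markers, 4 were in the table, with mean counts from 1.25 to 43.9, and Btbd17 had p = 0.0720 in the authors' deposited table. Blood cell markers were positive in 8 of 9 and nerve markers in 5 of 8, with 0 called in either list. Ptprc, of leukocytes, had p = 0.229 and Elavl4, of neurons, p = 0.156 in the authors' deposited table.

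**Figure D5:**
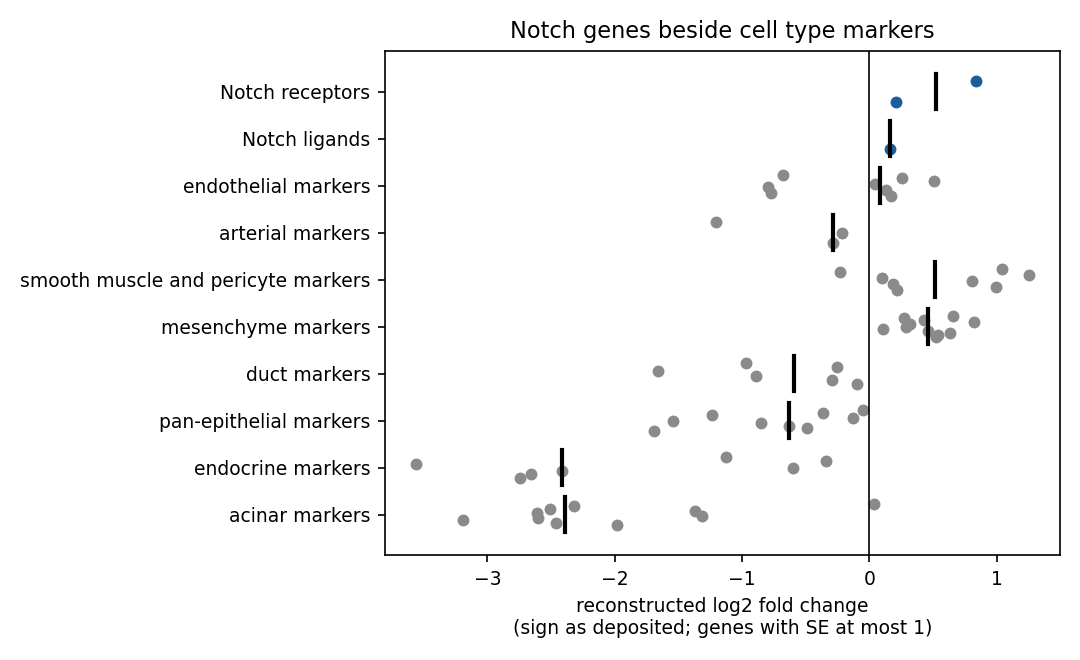
Reconstructed log2 fold change (x axis, sign as deposited) of genes with an SE of at most 1, by list (y axis); points are genes and black bars are medians. The 3 Notch genes shown, Notch2, Notch3 and Jag1, lie from 0.16 to 0.84, and the median is 0.51 in smooth muscle and pericyte markers, -0.59 in duct and -2.39 in acinar markers.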

How the data were processed

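Total RNA of 3 control and 3 knockout dorsal pancreases was sequenced as stranded libraries after removal of ribosomal RNA, per the labels' protocols. Trimmomatic, Salmon and DESeq2 and the build GRCm38 (mm10) are named in the submitters' processing notes; the sources used here give no versions, annotation or model design. The authors deposited 1 table with, per gene, a mean normalized count over all samples (a signal with no sample values), a log2 fold change, its error in log2 units, and p-values before and after adjustment. A gene counted as called at an adjusted p under 0.05. Lengths came from GENCODE vM21 and names and promoters from RefSeq.

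The shrinkage was read from the values: 92.7% of deposited log2 fold changes lay within 0.1 of 0. The estimate and SE before shrinkage were solved from the authors' deposited log2 fold change and error, under a Cauchy prior whose scale, 0.310, was set so that the z returned the deposited p-value. This held within 0.1 for 12992 genes (90.3% of those with a p), and values are given only for these. The script was tested on simulated data, but no recovery is given here for genes with an SE above 1. Only 3 members, Notch2, Notch3 and Jag1, had an SE of at most 1. That test is therefore not read as a check of the reconstructed values of the other members. A gene counted as well determined at an SE of at most 1.

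The members and lists were chosen with earlier results of these data known. Named genes were all members, each called gene and the 2 of smallest p of each pathway list, and up to 2 called genes or the 1 of smallest p of each marker list; Dpy30 and Pdx1 were added. No gene could be named for a pattern like a member's, since the table has no sample values. Python 3.11.15, numpy 2.4.6, scipy 1.17.1 and pandas 2.3.3 were used. Thresholds, scalings, the prior scale and lengths were varied.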

Additional observations from a re-analysis of the deposited data

How the results depend on the processing

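No member was called under any alternative tried: an adjusted p under 0.1, adjustment over every gene with a p, a mean count of at least 50, 3 scalings, and p computed again with no shift (added after seeing the data). Each scaling also needs p computed again from the reconstructed values, so it is read against that computation with no shift. It covers only the 12992 genes with a reconstructed value, and the others cannot be called. Both the p-values and the set of genes adjusted over therefore differ from the deposited ones, and their parts were not told apart. That computation with no shift took the other pathway genes called from 1 (Dlk1) to 0 and the calls over all genes from 90 to 43. Against it, the pathway genes called were 0 with the endothelial median at 0 (52 calls over all genes), 1 with the median of all genes at 0 (41) and 1 with the pan-epithelial median at 0 (146, with a shift of 0.63). With the deposited p and a mean count of at least 50, calls over all genes were 56. No member changed sign in a setting that gave it a value, but the reconstruction keeps the deposited sign at any prior scale. The scalings add the same shift to every gene (0.63, -0.09 or 0.04), and a positive shift cannot turn a positive value. The kept signs are therefore no check of direction. With the prior scale 20% larger, the 10 members ran from -0.15 (Dll4) to 0.25 (Notch3), with Notch1 at 0.14 and Jag2 at -0.09. That larger scale fits the deposited p-values of all genes less well than the scale used. A scale lower by 0.0005, added after seeing the data, moved a member by up to 1.06 and gave no value for Hey1. The SE times the z of the deposited p moved a member by at most 0.17, but that SE rests on the scale used. With the pan-epithelial median at 0, Notch2 was 0.84 and Jag1 0.80. The deposited shrunken values were 0.04 for Notch1, 0.08 for Notch3, -0.03 for Jag2 and -0.05 for Dll4. A scale 20% smaller gave no value for any member. Notch2, Notch1, Jag1 and Notch3 kept their ranks by level with and without length; without length Notch4 went from rank 8 to 5, Hes1 from 6 to 9, Jag2 from 9 to 7, Dll1 from 7 to 8 and Dll4 from 5 to 6. No paired analysis was possible because the table has no values per sample, and leaving out single samples was not run for the same reason.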
